A study of Mus musculus with 6 samples.

Results

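Nonclassical monocytes were taken from 6 single-cell libraries of old mouse lung by a rule on raw unique molecular identifiers (UMIs, counts of captured RNA molecules). Members were chosen by their own expression values. A cell barcode had to reach 500 genes and 1000 UMIs, with no more than 15% of its UMIs mitochondrial. It also needed at least 1 UMI of Ptprc (the leukocyte antigen CD45), at least 1 of Cx3cr1 and at least 2 of Treml4 and Ace together, and none of Ccr2, C1qa, Cdh5, Cd3e or Cd79a. The rule selected 1573 of 94392 barcodes, of which 88616 passed the cell filter and 32913 of those held a Ptprc UMI. The libraries labelled p16-DTR gave 267, 308 and 370 members and the controls 176, 277 and 175.

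The study asked how the lung changes when cells with high p16 expression are removed. The group labelled p16-DTR consisted of male mice with p16-CreERT2 (a tamoxifen-activated Cre recombinase under control of p16) and R26-LSL-DTR (a diphtheria toxin receptor at the Rosa26 locus behind a stop that Cre removes). The control group consisted of male p16-CreERT2 mice, which carry the same recombinase without the receptor. All mice were 21 months old. All received tamoxifen on 5 days, diphtheria toxin on 5 days after a gap of 2 weeks, and then 2 weeks of recovery. Each group had 3 libraries, and each library mixed 20000 CD45-negative with 9000 CD45-positive cells sorted from the same tissue, so shares among CD45 cells are shares of the sorted cells. The receptor acts only where the p16-driven recombinase has been active, and no untreated mice or mice without tamoxifen were analysed here.

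Nonclassical monocytes arise largely from classical monocytes that lose Ly6c2 and Ccr2 and gain Cx3cr1, and they depend on the nuclear receptor Nr4a1 for their survival. They crawl along the inner wall of blood vessels, held there by the integrin LFA-1 (Itgal with Itgb2), and take up debris and immune complexes. The lung is rich in them because of its large capillary bed.

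The label was checked against genes that the rule did not use. Of all members, 999 (63.5%) carried a Csf1r UMI, the receptor that blood monocytes need, and few transcripts of neutrophils or stromal cells. These 999 cells are called the restricted members below, with at most 1 UMI of Retnlg and Cxcr2 together and at most 3 of Col1a1, Col1a2, Col3a1, Dcn and Bgn. That restriction was chosen after the data were seen. Among restricted members 96.4% had at least 5 UMIs of Adgre4, an adhesion receptor of nonclassical monocytes, and 97.6% had a UMI of Spn, the leukosialin used to sort these cells. Both genes were thus present in nearly all restricted members, whereas the whole gate was more mixed.

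A further 428 members (27.2%) exceeded the neutrophil limit, 114 (7.25%) the stromal limit and 20 both limits, and 12 cells within both limits had no Csf1r UMI. Among the 428 cells, 219 had at least 5 Adgre4 UMIs, a median of 26016 UMIs per cell, and a Spn UMI in 99.1%. Another 193 of them had no Adgre4 UMI, a median of 10191 UMIs and a Spn UMI in 7.25%. Those 193 cells had a median of 728 UMIs of S100a8 and S100a9 (the subunits of the neutrophil protein calprotectin). The share of restricted members was 63.3%, 65.6% and 69.5% in the p16-DTR-labelled libraries and 38.6%, 72.9% and 57.7% in the controls. Control 1 held the smallest share and the most stromal-limit cells (19.3% of its members), and it stood apart on the first principal component (51.5% of the variance). Results are therefore given for all members and for restricted members, and the part that the other cells play in a difference was not tested. Summed marker levels of other classes differed between libraries among all members, and the range was narrower for some classes than for others. The 10 neutrophil markers summed to 8681 to 23365 CPM per library, the 12 epithelial and stromal markers to 2134 to 7645 CPM, the 12 T and natural killer cell markers to 9.69 to 205 CPM and the 12 endothelial markers to 125 to 162 CPM. The 7 B cell markers summed to 62.6 to 85.1 CPM, 8 platelet markers to 19.1 to 34.8 CPM and 9 dendritic cell markers to 7.41 to 52.9 CPM per library.

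**Figure D1:**
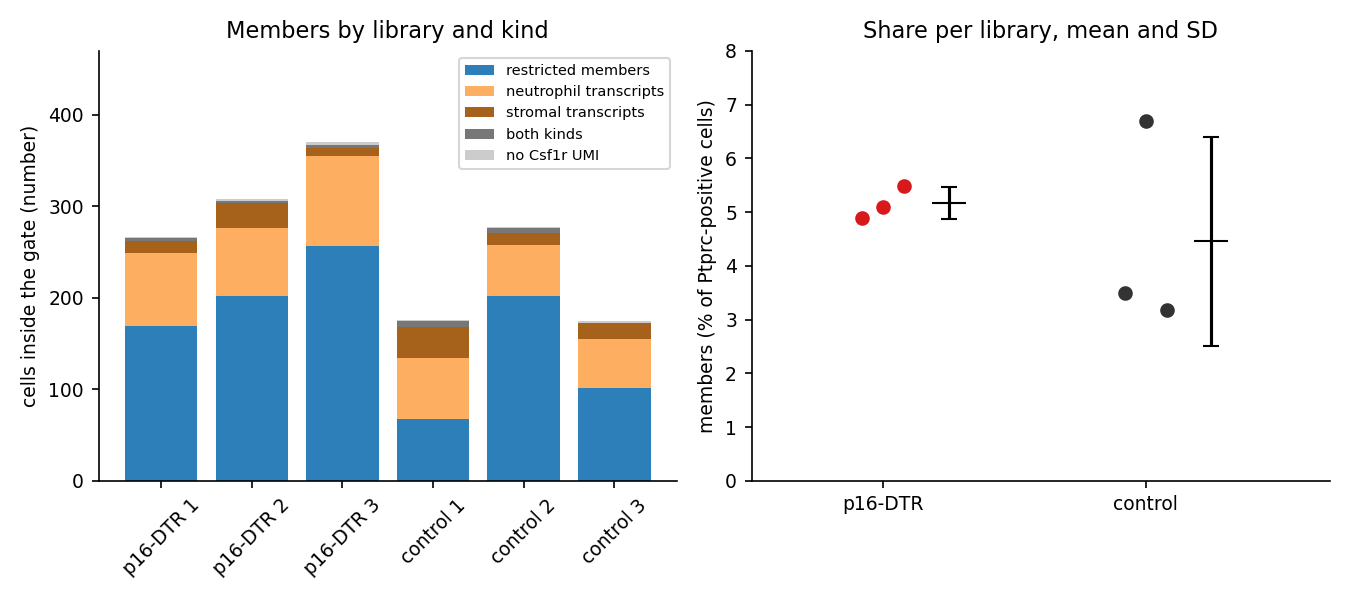
Left, the number of gated cells in each library, stacked by kind (restricted members, neutrophil transcripts, stromal transcripts, both, no Csf1r). Right, members as a percentage of Ptprc-positive cells in each library (points) with the mean and SD of each group; the control values lie on both sides of the values of the p16-DTR-labelled libraries.

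At the edge of the gate, 217 cells met every other condition with 1 UMI of Treml4 and Ace together, 81 members had 2, 61 had 3 and 1431 had at least 4. A Spn UMI was found in 21.7% of the cells with 1, in 21.0% of those with 2 and in 23% of those with 3, against 86.7% of those with at least 4. For Csf1r the shares were 36.4%, 54.3%, 63.9% and 93.6% in the same order, and for Adgre4 9.68%, 17.3%, 23% and 87.1%. The members with 2 or 3 UMIs were thus near the cells just outside the gate in Spn and lay between the others in Csf1r and Adgre4. Members had a median of 16517 UMIs (15145 to 17891.5 by library) and together 3517193 to 6586892 UMIs per library. Whole libraries held 13482 to 17332 barcodes and 254200305 to 344421685 UMIs. Of 93313 distinct barcode sequences, 1055 occurred in more than 1 library, and none was a member in more than 1; 52 members had a barcode that occurred in another library as well.

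The libraries did not differ detectably in how many nonclassical monocytes they held. Members made up 4.90%, 5.1% and 5.49% of Ptprc-positive cells in the p16-DTR-labelled libraries and 3.49%, 6.70% and 3.18% in the controls. The control values lay on both sides of the others, and the means were 5.16 ± 0.301% and 4.45 ± 1.95% (SD, n = 3 each; exact permutation test, two-sided, p = 0.5, adjusted p = 0.667 over 4 shares). With 3 libraries per group the smallest p this test can give is 0.1. As a share of gated monocytes, nonclassical cells made up 57.0 ± 6.44% against 53.6 ± 6.07% (exact permutation p = 0.5, n = 3 each). Restricted members made up 3.42 ± 0.362% against 2.69 ± 1.92% of Ptprc-positive cells (exact permutation p = 0.5, n = 3 each). With the same limits on classical monocytes, their share of gated monocytes was 48.8 ± 7.81% against 41.5 ± 12.5% (exact permutation p = 0.7, n = 3 each). The groups overlapped in both. Classical monocytes (at least 2 Ly6c2 UMIs and 1 of Ccr2 and Csf1r) made up 3.95 ± 0.914% against 3.71 ± 0.886% of Ptprc-positive cells (exact permutation p = 0.8, n = 3 each). Interstitial macrophages (at least 2 C1qa UMIs and 1 of Mrc1 and Csf1r, without Marco or Siglecf) made up 1.57 ± 0.536% against 0.825 ± 0.115%, with every p16-DTR-labelled library above every control (exact permutation p = 0.1, adjusted 0.4, n = 3 each). The macrophage groups overlapped after the neutrophil and stromal limits and with at most 1 UMI of other cell types (exact permutation p = 0.3 in both, n = 3 each).

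The genes of the rule were present throughout. Values are counts per 1000000 UMIs of the summed cells (CPM). Treml4, an innate receptor of the TREM family, was at 398, 365 and 373 CPM in the p16-DTR-labelled libraries and 354, 468 and 370.2 CPM in the controls. Ace, the angiotensin-converting enzyme, was at 524, 588 and 525 CPM in the p16-DTR-labelled libraries and 329, 585 and 549.6 CPM in the controls, lowest in control 1. The fractalkine receptor gene Cx3cr1 was at 234, 244 and 259 CPM in the p16-DTR-labelled libraries and 240.2, 338 and 239.7 CPM in the controls. The 2 groups overlapped in all of these genes, which describe the gate and were not tested between cell classes.

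Nr4a1, which the rule did not use, averaged 1276 ± 97.1 CPM over the 6 libraries of restricted members, 537 ± 47.2 CPM in classical monocytes and 307 ± 63.6 CPM in interstitial macrophages (SD, n = 6 each). The 3 classes were compared within mice with the edgeR quasi-likelihood test with Benjamini-Hochberg adjustment, after the same limits on neutrophil and stromal transcripts. The log2 difference of Nr4a1 was 1.23 ± 0.063 (SE, adjusted p = 3.87e-09) to classical monocytes and 1.99 ± 0.11 (adjusted p = 1.03e-07) to interstitial macrophages. Because gates on a few genes made the classes, these differences describe the gated cells.

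Against classical monocytes, 65.0% of 10186 genes differed at an adjusted p under 0.05, 3250 (31.9%) higher and 3375 (33.1%) lower in restricted members. With all members 65.8% of 11490 genes differed. Against interstitial macrophages 54.7% of 9657 genes differed with restricted members (2486 or 25.7% higher, 2795 or 28.9% lower), and 48.8% of 11198 with all members. The list of 22 nonclassical monocyte genes outside the rule had 21 tested, all of them higher than in classical monocytes with a median log2 difference of 3.64 (all genes -0.00026). In the same list 20 of 21 were higher than in interstitial macrophages, with a median of 2.93. In contrast 15 of 15 tested classical monocyte genes were lower than in classical monocytes (median -4.90), and 10 of 10 tested macrophage genes were lower than in interstitial macrophages (median -7.66).

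Surface and adhesion genes separated the classes. In restricted members and classical monocytes Adgre4 was at 1446 ± 144 CPM against 57.5 ± 9.0 CPM (SD, n = 6 each) and Spn at 545 ± 45.1 CPM against 38.5 ± 7.82 CPM. Itgal, the LFA-1 alpha chain, was at 953 ± 114 CPM against 119 ± 6.67 CPM, with a log2 difference of 2.98 ± 0.065. The lowest library of restricted members exceeded the highest of classical monocytes in all 3 genes. Of 20 tested genes of the adhesion and patrolling list 13 were higher and 2 lower (median 0.76), against 31.9% and 33.1% of all genes. S1pr5, a sphingosine-1-phosphate receptor that guides exit from tissue, was 6.52 log2 units above classical monocytes (162 ± 18.3 CPM against 1.71 ± 1.24 CPM) and 5.71 above interstitial macrophages.

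The largest differences to classical monocytes, by the rule for named genes, included metabolic and lipid genes. The gene model 1700011I03Rik was at 113 ± 29.8 CPM against 0.0829 ± 0.146 CPM among all members (SD, n = 6 each), with too few UMIs in classical monocytes for a fold. The log2 difference among all members was 9.24 for Cd300e, an activating receptor of monocytes. It was 8.10 for the fatty acid-binding protein gene Fabp4, 6.51 for the enolase gene Eno3 and 6.35 for the lipid-sensing nuclear receptor Pparg. The axonemal dynein Dnah12 (7.27), the ion transporter Slc12a2 (5.94), the fatty acid scavenger receptor Cd36 (5.73) and the lymphoid transcription factor Ikzf3 (5.19) were also among the 12. In restricted members the levels were 409.6 ± 45 CPM against 0.382 ± 0.404 CPM for Cd300e, 316 ± 34.1 CPM against 2.06 ± 0.432 CPM for Eno3, 1038 ± 103 CPM against 7.56 ± 2.8 CPM for Pparg and 1621 ± 193 CPM against 21.7 ± 5.55 CPM for Cd36 (SD, n = 6 each). In each of these 4 genes the nonclassical cells were higher in 6 of 6 mice. Over the lipid handling list, 9 of 16 tested genes were higher and 5 lower in restricted members (median 0.65), against 31.9% and 33.1% of all genes, and 6 of 19 were higher and 10 lower than in interstitial macrophages (25.7% and 28.9%).

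A gene of the stromal limit, the matrix proteoglycan Dcn, differed between all and restricted members. It was 5.35 log2 units above classical monocytes among all members and 0.30 in restricted members (adjusted p = 0.303), whose definition limits it. Csmd1, 5.09 higher among all members, was too low to be tested in restricted members. S100a9 and S100a8 were 4.74 and 4.67 log2 units above interstitial macrophages among all members, and 0.78 and 0.58 in restricted members (adjusted p = 0.00242 and 0.0776). The summed level of 10 neutrophil markers was 8681 to 23365 CPM per library among all members and 158 to 254 CPM in restricted members.

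Genes lower than in classical monocytes were led by F13a1, the coagulation factor XIII subunit of classical monocytes, at 3.19 ± 1.08 CPM against 1681 ± 199 CPM (log2 difference -9.11 ± 0.13). By the rule for named genes the others were the matrix proteins Vcan (-7.34) and Fn1 (-6.47), the surface protein Cd177 (-5.84), the interferon-inducible Ifi211 (-4.58), the uridine kinase Uck2 (-4.52), the actin capping protein Capg (-4.46) and the monocyte chemoattractant Ccl2 (-3.82), in the order of the log2 difference in restricted members. Against interstitial macrophages the complement chains C1qc (-12.18) and C1qb (-11.73) were lower among all members. The chemokine Ccl12 was at 0.0756 ± 0.118 CPM against 279 ± 179 CPM, Retnla, a product of alternatively activated macrophages, at 0.303 ± 0.38 CPM against 1019 ± 1118 CPM, and the haemoglobin scavenger receptor Cd163 at 0.0253 ± 0.062 CPM against 102 ± 29.2 CPM (SD, n = 6 each). These 3 genes were near 0 in the nonclassical cells, and no fold is given for them. The rule excludes cells with C1qa, whose partner chains are C1qb and C1qc (these 2 values are not independent of the gate). The collagenase Mmp13 had no UMI in any member.

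**Figure D2:**
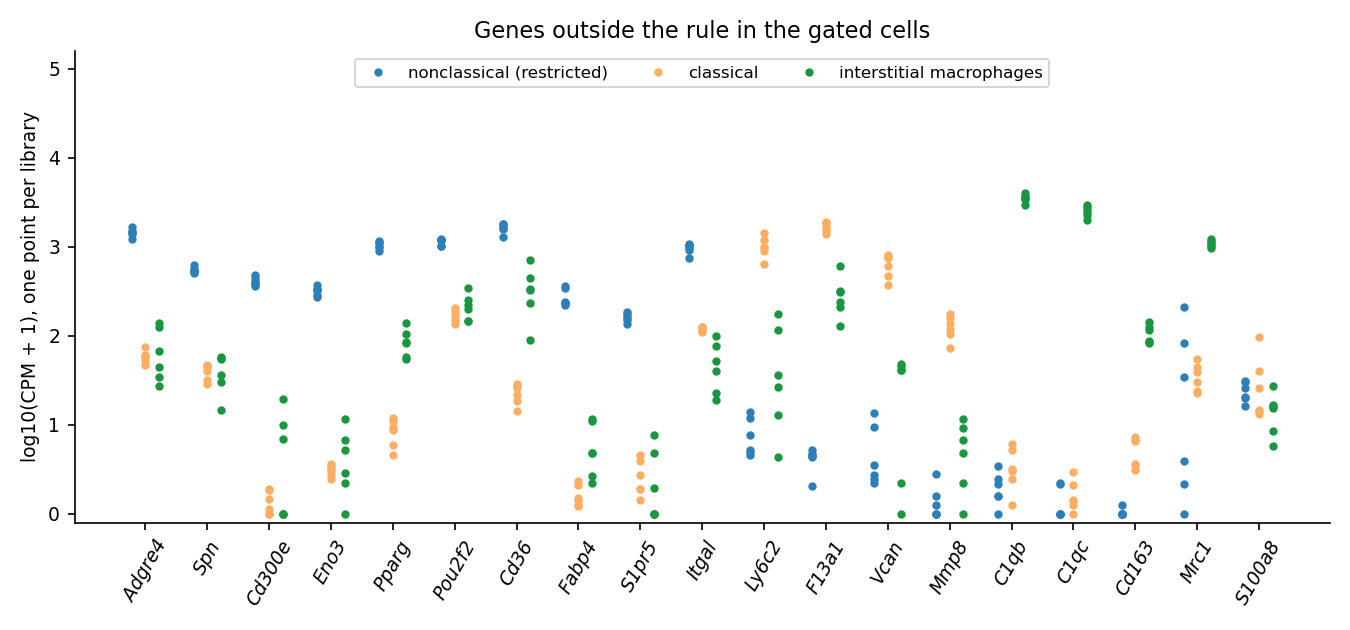
Level of 19 genes as log10 of CPM plus 1, with 1 point per library for restricted nonclassical monocytes, classical monocytes and interstitial macrophages; Ly6c2 chose the classical cells and Mrc1 the macrophages. The first 10 genes are higher in nonclassical cells than in classical monocytes in every library, and F13a1 and Vcan are lower.

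Transcription factors of the lineage list went both ways, with 10 of 22 tested genes higher and 11 lower than in classical monocytes (31.9% and 33.1% of all genes). Pou2f2, an octamer-binding factor, was at 1129 ± 87.5 CPM against 165 ± 25.7 CPM (log2 difference 2.76 ± 0.067). Klf2, a shear-responsive zinc-finger factor, was at 1243 ± 148 CPM against 430.1 ± 138 CPM (1.56 ± 0.10) and the dendritic and monocyte factor Irf8 at 81.7 ± 12.4 CPM against 135 ± 10.9 CPM (-0.77 ± 0.070). Cebpb, known to be needed for nonclassical monocytes, differed little from classical monocytes (0.22 ± 0.052, adjusted p = 0.00247) and more from interstitial macrophages (1.71 ± 0.12). In the survival and apoptosis list 9 of 15 tested genes were higher and 4 lower (median 0.36), against the same shares of all genes. The anti-apoptotic Bcl2 was at 424 ± 34.6 CPM against 23 ± 6.5 CPM and its relative Mcl1 at 672 ± 42.7 CPM against 982 ± 53.9 CPM. Irf8, Bcl2 and Mcl1 were chosen for naming after their values were seen.

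MHC class II genes were lower than in both other classes, and interferon response genes lower than in classical monocytes. Over all genes in restricted members 31.9% were higher and 33.1% lower than in classical monocytes, and 25.7% higher and 28.9% lower than in interstitial macrophages, beside which the counts below stand. Of 14 tested MHC class II genes 11 were lower and 1 higher than in classical monocytes (median -0.77), and 14 of 14 were lower than in interstitial macrophages (median -3.48). H2-Aa, a class II alpha chain, was at 318 ± 154 CPM against 644 ± 246 CPM in classical monocytes and at 9870.3 ± 1229 CPM in interstitial macrophages. Of 32 tested interferon response genes 29 were lower and 1 higher than in classical monocytes (median -1.82); against interstitial macrophages 5 of 28 were higher and 11 lower, and among all members 8 of 33 higher and 6 lower, near the 24.5% and 24.4% of all genes in that comparison. Of 23 tested class I presentation genes 10 were higher and 10 lower than in classical monocytes (median 0.073), and 13 were higher and 4 lower than in interstitial macrophages (median 0.37). Isg15, a ubiquitin-like antiviral protein, was at 7.75 ± 3.39 CPM against 75.8 ± 22.7 CPM (log2 difference -3.29 ± 0.14). For the senescence secretory list the direction of the median depended on the cells, with 20 of 33 tested genes higher and 6 lower among all members (median 1.08; 34.4% and 31.5% of all genes) and 3 of 24 higher and 13 lower in restricted members (median -0.47).

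**Figure D3:**
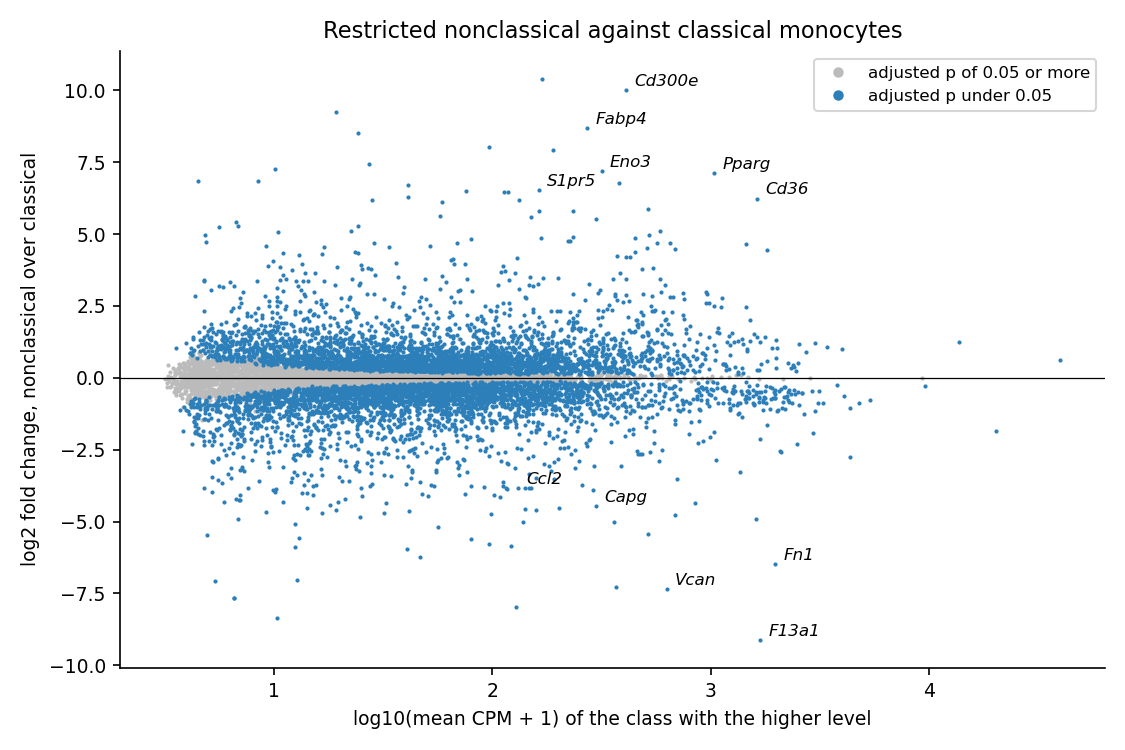
Log2 fold change of restricted nonclassical over classical monocytes against the mean level (log10 of CPM plus 1) in the class with the higher level, 1 point per tested gene outside the gates. Cd300e, Fabp4, Eno3, Pparg and S1pr5 lie at the top and F13a1, Vcan and Fn1 at the bottom.

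Promoters of the genes that set the cells apart were read for short motifs, because Klf2 binds CCACCC-type boxes and Nr4a1 binds AAAGGTCA. Both strands of the 250 bases before each RefSeq gene start (GRCm38.p6) were searched. Of 141 genes over 8-fold higher than in classical monocytes 108 matched, with 131 promoters, and of 141 over 8-fold lower 106 matched, with 134 promoters. CCACCC or GGGTGG occurred in 42.0% of promoters of the higher genes, 31.3% of the lower genes and 28.1% of all 32851 promoters. It also occurred in 13 of 22 promoters of the class I list (59.1%) and 13 of 32 of the interferon list (40.6%), so a share above that of all promoters was not particular to the higher genes. AAAGGTCA occurred in 2 of 131, 1 of 134 and 1.34% of all, and the PU.1-type word GAGGAAGT in 6.87%, 5.22% and 2.44%. A match is a description of the letters only. The promoters of Eno3 (chr11:70657126-70657175 on the plus strand) and S1pr5 (chr9:21248531-21248606 on the minus strand) are shown as examples among the strongest nonclassical genes, with the match in capitals.
Eno3: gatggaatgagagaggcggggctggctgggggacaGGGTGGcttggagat
S1pr5: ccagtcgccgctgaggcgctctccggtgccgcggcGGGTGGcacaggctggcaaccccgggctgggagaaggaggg
S1pr5 held 2 matches in the window, of which 1 is in capitals. The match in capitals lies 15 bases before the gene start in Eno3 and 128 bases before it in S1pr5.

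Several of the genes in which members differed most from each other belong to other cells. After thinning every cell to 5000 UMIs, the variance of UMIs divided by their mean was 178 for S100a9, 138 for S100a8, 157 for the surfactant gene Sftpc (1.08 to 733 by library, so that its median rests on a few libraries) and 96.9 for the matrix Gla protein Mgp (medians over 6 libraries), against 1.23 for the median gene. Gm42418, which overlaps ribosomal RNA sequence, was at 80.9, Il1b at 57.8 and the chemokine Cxcl2 at 46.4. Among restricted members the leading genes were again Gm42418 (62.7), then Cd74 (21.7), H2-Aa (19.5), H2-Eb1 (18.1) and H2-Ab1 (17.5), against 1.17 for the median gene. Cd74 is the invariant chain that accompanies class II molecules, so 4 of the 10 most variable genes of restricted members belong to class II presentation. The 9 dendritic cell markers summed to 5.27 to 81.8 CPM per library of restricted members, and their part in this variation was not tested. Fth1 (16.1), Cxcl2 (10.9), Lyz2 (9.57), Actb (9.49) and Apoe (8.99) completed the 10. A UMI of H2-Aa was found in 12.2%, 19.0% and 14.7% of thinned restricted members in the p16-DTR-labelled libraries and in 22.4%, 11.3% and 27.0% in the controls, which overlap.

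The gene whose promoter drives the recombinase was examined first between the groups. Cdkn2a (GRCm38 chr4:89274471-89294653, minus strand), which encodes p16 and from another reading frame p19Arf, had 23, 31 and 35 UMIs in members of the p16-DTR-labelled libraries and none in members of any control. These are 4.58, 5.32 and 5.31 CPM, at least 21.6-fold higher than a floor of 3 counts over the control group. In restricted members the counts were 15, 20 and 22 against none, at least 12-fold higher. The values are higher in the group in which p16-expressing cells were to be removed, so that group is called by its label throughout. Counts per gene do not separate p16 from p19Arf. The edgeR adjusted p was 0.508 (0.174 in restricted members), and DESeq2 gave 0.000592 and 0.0265. Cdkn2a passed the filter on low counts only through the p16-DTR-labelled libraries, so these p-values are no support of their own.

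Cells in which Cdkn2a was detected were counted at equal depth. At 5000 UMIs per cell it was found in 19 of 921 members of the p16-DTR-labelled libraries (2.06%, 95% Wilson interval 1.32 to 3.20) and in 0 of 612 control members, where a count of 0 (3 counts of the total) allows a share with a UMI of up to 0.490%, which is no limit on cells expressing the gene. Without thinning it was in 70 of 945 (7.41%) and 0 of 628 members, in 11 of 753 (1.46%) and 0 of 539 neutrophils, in 49 of 712 (6.88%) and 0 of 533 classical monocytes, and in 338 of 2029 (16.7%) and 16 of 2379 (0.673%) B cells. Thinned neutrophils, taken as a class that should largely lack the gene, had it in 4 of 597 (0.670%, interval 0.261 to 1.71) and 0 of 437 cells, classical monocytes in 11 of 707 (1.56%) and 0 of 530, and B cells in 125 of 1964 (6.36%) and 6 of 2254 (0.266%). Median depths before thinning were 15753 and 17397.5 UMIs in members and 9181 and 8668 in neutrophils, with the group labelled p16-DTR first. Thinning left out 24 and 16 members, and 156 of 753 and 102 of 539 neutrophils. Thinned restricted members had a Cdkn2a UMI in 15 of 616 (2.44%, interval 1.48 to 3.98) and 0 of 362 cells. The intervals of members and neutrophils overlapped, and the difference between these classes was not tested. These intervals and limits cover counting error only.

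Transgene-related features were also counted over all cells. Over all filtered cells Cdkn2a was at 7.10, 8.57 and 7.31 CPM in the p16-DTR-labelled libraries and at 1.15, 2.60 and 2.84 CPM in the controls, and the tdTomato feature had 89, 74 and 94 UMIs against none in each control. Members had 1, 0 and 1 tdTomato UMIs against none. Hbegf, the mouse gene of the growth factor that serves as toxin receptor in other species, had 0.172 to 5.13 CPM per library of members, too low to be tested.

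Across all genes, edgeR with Benjamini-Hochberg adjustment called none of 11972 genes (0.0%) between the groups in members and none of 9809 (0.0%) in restricted members. At an unadjusted p under 0.05 there were 538 genes (4.49%) and 697 genes (7.11%). DESeq2 called 16 (9 higher) and 21 (18 higher) genes, of which 6 were shared (Ifi204, Cdkn2a, Top2a, the gene model Gm2682 and the natural killer cell genes Nkg7 and Il2rb). On counts simulated with a common spread for all genes, edgeR recovered 92 of 100 genes changed 4-fold and 22 of 100 changed 2-fold, with 7 false calls. That setting lacks the differences in spread between genes, so it does not give the power in these libraries. The values below are therefore described with their spread. The groups did not overlap in 9.86% of genes in members and in 12.8% in restricted members.

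Interferon response genes had higher values in the p16-DTR-labelled libraries, although none of them passed the edgeR adjusted test (DESeq2 called Ifi204). Of 38 listed genes 33 were tested in members; 30 had a positive log2 difference against 47.6% of all genes, and the median was 0.54 against -0.011 over all genes. At an unadjusted p under 0.05, 11 of the 33 were higher and none lower, where 1.74% of all genes were higher. The groups did not overlap, with the p16-DTR-labelled libraries on top, in 10 of 33 (3.98% of all genes). In restricted members 28 were tested, 27 were positive (48.8% of all genes), 15 had an unadjusted p under 0.05 and a higher value (3.85% of all genes, against 3.25% lower) and 14 did not overlap (5.85%), with a median of 0.60. The list was chosen with earlier results of these data known.

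Summed over the 37 list genes in the files, members had 1719, 1689 and 1550.2 CPM in the p16-DTR-labelled libraries and 1309, 885 and 1261 CPM in the controls. The lowest of the former exceeded the highest of the latter. In restricted members the sums were 1344, 1658 and 1274 CPM and 985, 836 and 1173 CPM, again without overlap. Control 2 was the lowest library in both. Without it the list median was 0.44 in members and 0.49 in restricted members, and without control 1 it was 0.70 and 0.68.

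Ifi204 (GRCm38 chr1:173747293-173766943, minus strand), a nuclear DNA sensor of the p200 family, did not overlap between the groups in members or in restricted members. Ifi204 was named for groups apart in members and a small unadjusted p, a choice that favours a small spread within groups. Restricted cells are part of the members, so groups apart there are no separate check. It was at 138, 143 and 141 CPM in the p16-DTR-labelled libraries and 90.3, 87.1 and 86.7 CPM in the controls. The means were 141 ± 2.55 CPM against 88 ± 2.0 CPM (SD, n = 3 each), a log2 difference of 0.71 ± 0.086 (SE, edgeR adjusted p = 0.508). In restricted members the means were 159 ± 18.4 CPM against 96.6 ± 6.27 CPM (SD, n = 3 each), with an edgeR adjusted p of 0.174 and a DESeq2 adjusted p of 0.00267 (1.36e-05 in all members). Ifi207, a neighbour of the same family, had 213, 211 and 179 CPM in the p16-DTR-labelled libraries and 113, 149 and 136 CPM in the controls. DESeq2 called Ifi207 in restricted members (adjusted p = 0.0245, edgeR adjusted p = 0.478) and not in all members. Reads can be shared among the near-identical genes of this family, so the split between Ifi204 and Ifi207 is uncertain.

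Irf7, the factor that amplifies type I interferon, was at 49.4, 54.4 and 46.6 CPM in the p16-DTR-labelled libraries and 24.4, 30.8 and 36.4 CPM in the controls (log2 difference 0.75 ± 0.17, adjusted p = 0.893). Nlrc5, which drives class I genes, had 54.1, 65.6 and 56.8 CPM in the p16-DTR-labelled libraries and 26, 35 and 39.2 CPM in the controls. Eif2ak2, the double-stranded RNA kinase PKR, had 47.2, 48.4 and 39.3 CPM in the p16-DTR-labelled libraries and 30.8, 32.5 and 31.8 CPM in the controls. Ifi207, Nlrc5 and Eif2ak2 are outside the interferon list, with Nlrc5 on the class I list. Like Irf7, they were named for groups apart in members and a small unadjusted p. Irf7, Nlrc5 and Eif2ak2 also did not overlap in restricted members, which are part of the members, so this is no separate check.

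Further genes of the list are given for description. Oas1a, which makes the activator of RNase L, was at 20.1, 15.8 and 15.3 CPM in the p16-DTR-labelled libraries and 7.64, 8.93 and 8.81 CPM in the controls (log2 difference 1.04 ± 0.20; restricted 0.67 ± 0.23). Ifi27l2a, an interferon-induced membrane protein, was at 323, 290.4 and 226 CPM in the p16-DTR-labelled libraries and 157, 93.3 and 199 CPM in the controls. Its groups were apart in all members and overlapped in restricted members. Isg15 overlapped between the groups in members, at 64.1, 44.1 and 49.5 CPM in the p16-DTR-labelled libraries and 55.5, 15 and 51.7 CPM in the controls. In restricted members it was at 9.26, 12.6 and 9.29 CPM in the p16-DTR-labelled libraries and 7.44, 3.36 and 4.55 CPM in the controls, without overlap, while the share of thinned restricted members with an Isg15 UMI overlapped (2.78% to 4% against 2% to 4.48%). In thinned B cells that share was 3.93%, 3.25% and 2.68% against 2.33%, 1.17% and 1.63%, without overlap. Means were 47.4% against 34.8% in neutrophils and 20.2% against 21.1% in classical monocytes, both with overlap. The other list genes were not compared between the groups in B cells or neutrophils.

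**Figure D4:**
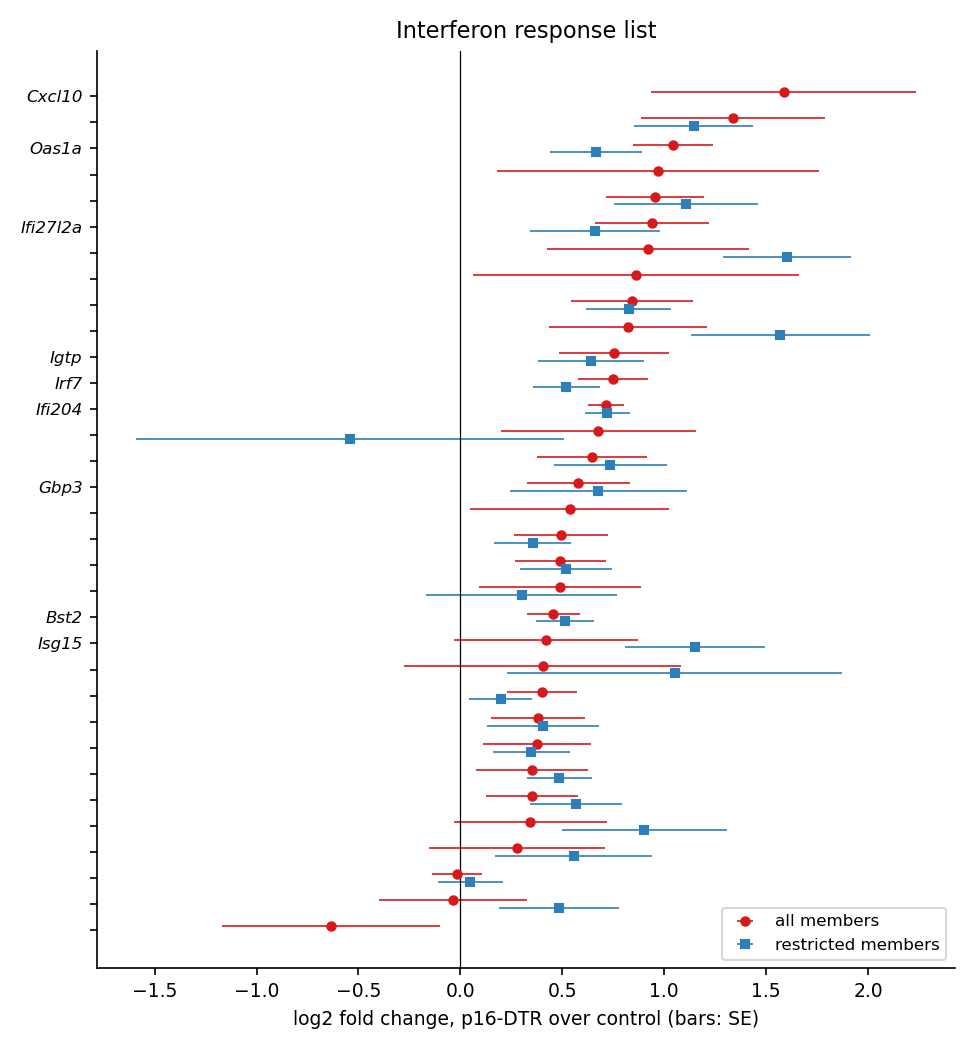
Log2 fold change of the p16-DTR-labelled libraries over the controls, with its SE, for the interferon response genes tested in all members (circles) and restricted members (squares), ordered by the value in all members, with those of them that the text describes labelled. In members 30 of 33 and in restricted members 27 of 28 lie above 0; none has an edgeR adjusted p under 0.05.

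The promoters of these genes were read for the core of the interferon-stimulated response element, in which GAAA is followed by any 2 bases and a further GAAA, on either strand within 250 bases before the RefSeq start. Of 38 listed genes 28 matched, with 32 promoters, and 18 of these held this motif, against 2.98% of all 32851 promoters. For the class I list 3 of 22 promoters (13.6%) held it. The 5 genes with a match and the smallest unadjusted p are shown with the match in capitals and the surrounding bases in lower case, as examples of the motif in genes of the list. They lie at chr5:120907526-120907574 on the minus strand, chr8:71537552-71537631 on the minus strand, chr11:58199487-58199555 on the plus strand, chr5:92349058-92349137 on the minus strand and chr3:142559970-142560043 on the plus strand (GRCm38.p6), each printed 5′ to 3′ along its gene.
Oas1a: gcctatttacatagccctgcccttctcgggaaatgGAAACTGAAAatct
Bst2: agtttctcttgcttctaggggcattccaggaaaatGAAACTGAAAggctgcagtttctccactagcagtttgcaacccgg
Igtp: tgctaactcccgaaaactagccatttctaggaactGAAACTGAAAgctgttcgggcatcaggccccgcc
Cxcl10: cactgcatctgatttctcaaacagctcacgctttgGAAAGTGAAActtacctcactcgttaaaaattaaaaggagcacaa
Gbp3: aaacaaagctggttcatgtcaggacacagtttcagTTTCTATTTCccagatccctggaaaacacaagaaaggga
Oas1a, Bst2 and Igtp share the same 10 letters, GAAACTGAAA. Oas1a, Bst2 and Gbp3 held 2 matches in the window, of which 1 is in capitals. The match in capitals lies 14 bases before the start in Oas1a, 34 in Igtp, 39 in Gbp3, 124 in Bst2 and 213 in Cxcl10. Among these genes Bst2 (tetherin, which holds budding virus at the cell surface) had a log2 difference of 0.46 ± 0.13, the immunity-related GTPase Igtp 0.75 ± 0.27, the chemokine Cxcl10 1.59 ± 0.65 and the guanylate-binding protein Gbp3 0.58 ± 0.25 in members. Given for description, these values have no edgeR adjusted p under 0.05.

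Whether the group difference was unlike that of classical monocytes was tested as an interaction over both classes in the same mice. Over the interferon list the difference was larger in nonclassical monocytes for 29 of 34 genes (median excess 0.33 log2 units) and for 27 of 32 in restricted members (median 0.29). Over all genes the median excess was 0.0018 in members and -0.020 in restricted members. The share of all genes with a larger difference was not counted. None of 11490 genes passed the edgeR adjusted test of this difference (0.0%), while 335 (2.92%) had an unadjusted p under 0.05, 2 of them on the list. In restricted members 7 list genes of 32 had such a p (5.52% of all 10186 genes), and none of these genes passed the adjusted test. DESeq2 also called none in members.

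Class I presentation genes showed a smaller difference in the same direction. Of 23 tested genes 20 were positive in members (median 0.22; 47.6% of all genes), 4 were higher with an unadjusted p under 0.05 (1.74%) and 6 did not overlap (3.98%). In restricted members 19 were positive (48.8%), with a median of 0.13, 7 were higher with such a p (3.85%), and without control 2 only 14 were positive. H2-T23, the class Ib molecule Qa-1, was at 194, 208 and 191 CPM in the p16-DTR-labelled libraries and 153, 153 and 156 CPM in the controls (log2 difference 0.40 ± 0.085). B2m, the light chain of class I, was at 3588, 3609.97 and 3408 CPM in the p16-DTR-labelled libraries and 2102, 3287 and 3013 CPM in the controls. Both were above every control in each p16-DTR-labelled library. For H2-T23 this was a condition of its naming. Class II genes did not share this: 6 of 14 were positive in members (median -0.17) and 2 of 14 in restricted members (median -0.24).

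The nonclassical identity genes had slightly higher values in members and a median near 0 in restricted members. In members 21 of 21 tested genes were positive (median 0.18), and in restricted members 14 of 21 (0.046). Without control 1 the members' count was 13 of 22 (median 0.03). Fcgr4, the activating Fc receptor of these cells, was at 416, 402 and 532 CPM in the p16-DTR-labelled libraries and 214, 344 and 316 CPM in the controls. Its groups did not overlap in restricted members either (log2 difference 0.43 ± 0.12, edgeR adjusted p = 0.521). Fcgr2b, the inhibitory Fc receptor, was at 83.4, 75 and 96.7 CPM in the p16-DTR-labelled libraries and 40.7, 59.7 and 65.4 CPM in the controls. Fabp4 was at 239 ± 48.2 CPM against 145 ± 44.5 CPM (SD, n = 3 each) in members, and its groups overlapped in restricted members. Nr4a1 (0.10 ± 0.15) overlapped between the groups.

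Senescence-related genes other than Cdkn2a had no common direction. Of 19 tested arrest and p53 genes 8 were positive, Cdkn2a among these, and 11 negative in members. Cdkn1a, which encodes the kinase inhibitor p21, was at 317, 230.2 and 236 CPM in the p16-DTR-labelled libraries and 274, 214 and 259.6 CPM in the controls, with overlapping groups (log2 difference 0.11 ± 0.17). Lmnb1, a nuclear lamin that is lost in senescence, had -0.13 ± 0.30 and the p53 target Btg2 -0.22 ± 0.21. In the secretory list 12 of 33 genes were positive in members (median -0.21) and 13 of 20 in restricted members (median 0.14), and in the NF-kB list 12 of 28 and 14 of 28. Il1b, the inflammasome cytokine, was at 3499.9 ± 982 CPM against 3505 ± 1198 CPM (SD, n = 3 each) in members and at 579 ± 69.5 CPM against 519.6 ± 80.2 CPM (SD, n = 3 each) in restricted members, with overlapping groups in both. Cxcl2 was at 2029 ± 619 CPM against 1704 ± 678 CPM (SD, n = 3 each) in members and at 250.03 ± 108 CPM against 139 ± 43.5 CPM (SD, n = 3 each) in restricted members, where the groups did not overlap.

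Among 16 tested glucocorticoid-induced genes Fkbp5 had the largest positive difference, and Pdk4, a kinase that restrains pyruvate oxidation, the largest negative one (-1.37 ± 0.66, at 2.48 ± 1.86 CPM against 6.6 ± 4.21 CPM (SD, n = 3 each) in members). Fkbp5, a chaperone of the glucocorticoid receptor and a direct target of it, was at 225, 189 and 353 CPM in the p16-DTR-labelled libraries and 72, 163 and 91.6 CPM in the controls in members (log2 difference 1.27 ± 0.37, adjusted p = 0.893). Each p16-DTR-labelled library was above each control, with p16-DTR 3 the highest and control 2 the nearest of the controls. In restricted members the log2 difference was 1.36 ± 0.35. Dusp1, a phosphatase that ends kinase signalling, was at 1779, 1646 and 1836 CPM in the p16-DTR-labelled libraries and 1199.97, 1372 and 1463 CPM in the controls, and Ddit4, an inhibitor of mTORC1, at 111 ± 15.6 CPM against 63.7 ± 20.1 CPM (SD, n = 3 each). DESeq2 called Dusp1 in restricted members (adjusted p = 0.0297; edgeR adjusted p = 0.520) and not in all members. Over the list 11 of 16 tested genes were positive in members (median 0.11; 3 higher with an unadjusted p under 0.05) and 10 of 15 in restricted members (median 0.20; 6 higher with such a p). Over all genes 47.6% and 48.8% were positive, and 1.74% and 3.85% were higher with such a p. Dusp1 also belongs to the immediate early and dissociation stress list, in which 11 of 22 were positive in members and 15 of 20 in restricted members. In that list 1 gene was higher and 1 lower with an unadjusted p under 0.05 in members. In restricted members 4 were higher and 2 lower with such a p. Of all genes 2.76% in members and 3.25% in restricted members were lower with such a p. The part of handling in the difference was not tested.

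**Figure D5:**
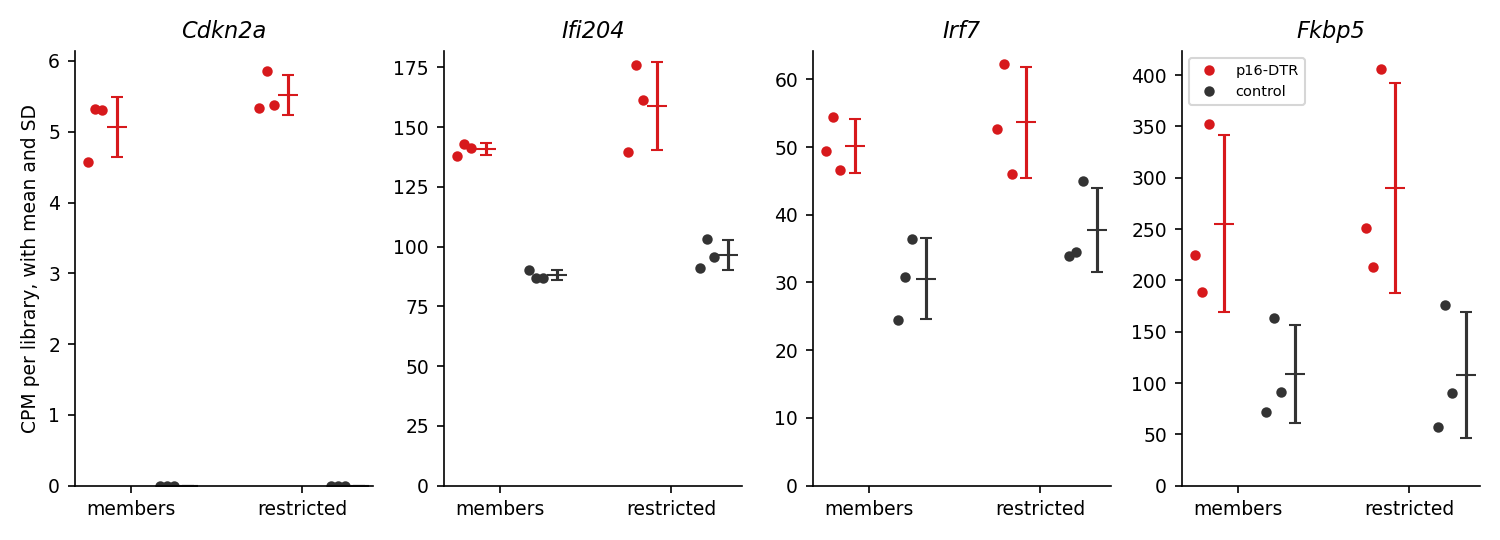
CPM per library (points) with mean and SD for Cdkn2a, Ifi204, Irf7 and Fkbp5 in all members and in restricted members, libraries labelled p16-DTR beside controls. In all 4 genes each p16-DTR-labelled library lies above each control, which in all members was a condition for naming Ifi204 and Irf7. Cdkn2a is at 0 in the controls.

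Proliferation and lymphocyte genes were unevenly spread over the libraries. Top2a, a topoisomerase of dividing cells, was at 30.1, 15.6 and 8.5 CPM in the p16-DTR-labelled libraries and 4.33, 3.61 and 3.13 CPM in the controls in members. The proliferation list summed to 213, 123 and 109 CPM in the p16-DTR-labelled libraries and 98.2, 97.1 and 95.5 CPM in the controls, highest in p16-DTR 1. In restricted members the sums were 334, 148 and 135 CPM against 141, 112 and 105 CPM, with overlapping groups. Of 11 tested list genes 8 were positive in members, and 8 of 9 in restricted members (47.6% and 48.8% of all genes). The share of thinned members with a UMI of Mki67, another marker of dividing cells, was lower (0.867% against 1.28%), with overlapping groups. Markers of T and natural killer cells summed to 205, 42.7 and 129 CPM and 55.2, 9.69 and 21.3 CPM in members, and 357, 62 and 73.1 CPM and 164, 8.4 and 24.5 CPM in restricted members. Nkg7, a granule protein of natural killer cells, was at 16.5, 2.4 and 13.4 CPM in the p16-DTR-labelled libraries and 1.02, 0.76 and 0.853 CPM in the controls, and Klrb1c (NK1.1) had 55 UMIs in the p16-DTR-labelled libraries and none in the controls. DESeq2 called Nkg7, Klrb1c and Il2rb in members (adjusted p = 0.0183, 0.014 and 0.0183) and Nkg7 and Il2rb in restricted members. The edgeR adjusted p in members was 0.893 for Nkg7 and 0.797 for Klrb1c. In members Nkg7 and Klrb1c passed the filter on low counts only through the p16-DTR-labelled libraries, where they are high. Their calls are therefore no support of their own. Of the 12 markers, 3 reached 10 CPM in any library of members. p16-DTR 1 was highest in both lists, and the part of natural killer transcripts in the other differences was not tested.

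Of the 8 genes named by the rule for lower values in the p16-DTR-labelled libraries, 1 kept its groups apart in restricted members. Some of the 8 were too low there to be tested. All 8 higher genes named by the same rule kept their groups apart there. Over all genes of restricted members 12.8% did not overlap, in either direction. The lower and the higher genes were chosen for groups apart in members, which include the restricted cells, so neither count is a separate check. The 8 lower genes were Nckap5 (-1.20 ± 0.21), Icam1, which encodes an adhesion ligand of LFA-1 (-0.76 ± 0.16), Msrb3 (-1.26 ± 0.31), Lbh (-0.63 ± 0.16), Flrt2 (-1.65 ± 0.42), Sucla2 (-0.47 ± 0.12), Mme (-1.58 ± 0.42) and Mfge8 (-1.46 ± 0.41). The groups overlapped in restricted members for Nckap5, Icam1, Lbh and Mfge8, while Msrb3, Flrt2 and Mme were too low there to be tested. Sucla2, a subunit of succinyl-CoA ligase, kept its groups apart in restricted members (-0.59 ± 0.14). Markers of epithelial and stromal cells summed to 2967, 5188 and 2134 CPM in the p16-DTR-labelled libraries and 7645, 3221 and 4818 CPM in the controls in members, and to 210.1, 236 and 214 CPM and 201, 2158 and 237 CPM in restricted members. Their part in these values was not tested. Abca1, the cholesterol exporter, was at 89.7, 77.8 and 56.5 CPM in the p16-DTR-labelled libraries and 93.4, 98.3 and 137 CPM in the controls in restricted members, and its groups did not overlap there or in members.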

How the data were processed

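Single-cell RNA was measured in 6 libraries (GEM-X 3' chemistry, per the labels' protocols). Each deposited matrix gives raw UMI counts for every gene in every barcode, which the authors made with Cell Ranger 8.0.1 on the mm10 build, per the submitters' processing notes; 30934 of 31054 features matched GENCODE M21 (GRCm38).

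Cells were gated on raw UMIs as described, with no clustering. No doublet caller was run; the gate excludes cells with Cdh5, Cd3e or Cd79a, and alternatives left out high-UMI members or cells with more than 1 UMI of other types. Classical monocytes additionally had no Treml4, Ace or C1qa. Counts were summed per library and class. The test was edgeR 4.0.16 (quasi-likelihood, TMM, filterByExpr, Benjamini-Hochberg at 0.05) in R 4.3.3 on the group alone, or with the mouse as a block between classes; SEs follow from the F statistic. DESeq2 1.42.0 was an alternative. Shares were compared with exact two-sided permutation tests. Gating and permutation tests ran in Python 3.11.15 (pandas 2.3.3, scipy 1.17.1 and numpy 2.4.6), and plots in matplotlib 3.10.9. The tests were tried on simulated data.

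Named genes were Treml4, Ace, Cx3cr1, Nr4a1, Cdkn2a, Cdkn1a, Hbegf and tdTomato; between groups the 8 higher and 8 lower genes of smallest p with a mean of at least 20 CPM and no overlap; up to 4 per list (highest mean or smallest p); between classes the 12 higher and 8 lower called genes of largest difference with at least 100 CPM; and the 10 most variable genes. A gene named outside this rule was chosen after its values were seen. Members and lists were chosen with earlier results of these data known. The labels do not say that replicate numbers pair the mice. No pair of libraries in a group agreed within the counting noise of summed UMIs (chi-square per degree of freedom of at least 7.016 over genes). That measure leaves out the sampling of cells. Each library is taken as 1 mouse, and p-values measure the spread between these libraries. The human receptor transcript was not analysed here, and some genes are not reported here.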

Additional observations from a re-analysis of the deposited data

How the results depend on the processing

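Counts of genes between the groups were 0 with edgeR under each planned setting other than DESeq2, which gave 16, and in restricted members 0 with edgeR, 21 with DESeq2 and 1 with the replicate block. The replicate block gave 0 in all members; the numbers share no stated mouse, litter or day, and same-numbered libraries deviated from their group means with correlations of 0.080, -0.312 and 0.228, so they were not treated as pairs. Counts between classes stayed within 1.5 times the reported ones in each alternative run. Shares of members could not pass a threshold of 0.05 with 3 libraries per group (smallest p 0.1, or 0.2 with 1 library left out), so their p-values say nothing about stability. Without control 2 the groups no longer overlapped in the share of Ptprc-positive cells (5.16% against 3.33%). Without p16-DTR 1 they no longer overlapped in the share of gated monocytes (60.7% against 53.6%). With 1 library left out the differences ran from 0.0718 to 1.83 percentage points of Ptprc-positive cells and from 0.354 to 7.08 points of gated monocytes. No other call depended on the block.

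Log2 differences of the following genes changed sign in some settings, large ones among them, and the cause was not tested. Leaving out 1 library gave -0.0036 to 0.23 for Nr4a1, -0.068 to 0.23 for Cdkn1a (-0.10 to 0.30 in restricted members), -0.36 to 0.087 for Lmnb1 (-0.25 to 0.15 restricted) and -0.13 to 0.43 for Il1r2 (-2.11 to -0.56 restricted). In restricted members it gave -1.10 to 1.01 for Nckap5 (-1.33 to -0.99 in all members), -0.14 to -0.067 for Cebpb (0.0017 to 0.16), -0.0026 to 0.21 for Pcna (0.14 to 0.25) and -0.87 to 3.99 for Ccl5, and -0.0030 to 0.10 for the median of the nonclassical list (0.032 to 0.45 in all members). Cebpb was -0.15 with at most 1 UMI of other cell types, -0.037 without high-UMI members, and in restricted members -0.11 (-0.11 with DESeq2, -0.11 with the block, -0.12 with library size). Il1r2 was -1.34, -0.21, -1.08, -1.12, -1.12 and -1.10 in the same order. Dcn, at 5.35 against classical monocytes and 6.52 against interstitial macrophages in all members, was -0.041 against classical monocytes with at most 1 UMI of other types, and -0.088 against interstitial macrophages in restricted members.

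Of 10 genes compared as shares of thinned members with a UMI, none could pass, since the smallest exact permutation p is 0.1, and only Cdkn2a had groups apart. Differences in percentage points changed sign for Ly6c2 (-0.396 at 3000 UMIs, -0.0173 with at least 3 UMIs of Treml4 and Ace, -0.144 with at most 1 UMI of other types, -0.179 to 0.904 leaving out 1 library), Nr4a1 (-0.765 at 3000 UMIs, -1.41 with at least 1 UMI of Treml4 and Ace, -0.124 with at most 1 of other types, -0.957 to 3.73), Spn (-1.52 restricted, -2.35 to 12.2), Cd36 (-2.84 to 12.7), H2-Aa (0.285 without thinning, 0.451 with at least 3 UMIs of Treml4 and Ace), Isg15 (-1.6 with at most 1 of other types, -1.29 to 3.62), Cdkn1a (0.237, 0.656, -5.44 to 1.44) and Mki67 (0.757, 0.14, -0.864 to 0.0917), the last 2 in the order of 3000 UMIs, at most 1 UMI of other types and 1 library left out.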

Other observations

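The surfactant gene Sftpc, a product of alveolar type II cells, varied between members in some libraries only. The variance of its UMIs divided by their mean was 1.08, 2.39 and 438 in the p16-DTR-labelled libraries and 1.23, 312 and 733 in the controls. The innate sensing list had 21 of 26 tested genes with a positive group difference in members (median 0.13, against 47.6% of all genes) and 16 of 25 in restricted members (median 0.089). Nod1, a sensor of bacterial cell wall, was at 64.3, 69.3 and 75.3 CPM in the p16-DTR-labelled libraries and 54, 59.3 and 50.3 CPM in the controls in members, without overlap. The lysosome list had 16 of 24 positive in members and 7 of 24 in restricted members. The circadian clock list had 5 of 15 and 3 of 10.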
